A study of Mus musculus with 386 samples.

Results

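The genes described here encode 7 proteins of synaptic vesicle release: the SNARE proteins Snap25, Stx1a and Vamp2, the calcium sensor Syt1, the complexins Cplx1 and Cplx2, and the vesicle protein Sv2b. Each was taken from the array as the transcript cluster that carries its symbol alone, and where a symbol had several clusters the one with the highest mean would have been used. Each of the 7 had a single such cluster, and they were 7 of 18820 genes measured in this way. The arrays, Affymetrix Mouse Gene 1.1 ST, carried RNA of 4 tissues (brain, kidney, liver, lung) from mice of both sexes at an age of 23 days. The mice belonged to the inbred strains CAST, PWK and WSB or to the 6 F1 crosses that these strains give in both directions, whose names give the dam before the sire (in CASTxPWK the dam was CAST). All were untreated animals bred at 1 site from stock a few generations from commercial founders, and RNA came from powder of a piece of each tissue, with no region of the brain named in the labels. There were 85 brain arrays (44 from females and 41 from males, 6 to 13 per cross and 2 to 7 per cross and sex). Besides these there were 102 kidney arrays (10 to 12 per cross), 101 liver arrays (9 to 13 per cross) and 98 lung arrays (10 to 12 per cross). In all 111 animals were used, and 67 of them contributed every tissue; replicates of a cross in a tissue were different animals. All levels are log2 signals, so a difference of 1 is a doubling, and the level of a gene was compared only with its own level in other samples.

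Neurons release transmitter by fusing synaptic vesicles with the presynaptic membrane. Vamp2 (synaptobrevin) on the vesicle and Stx1a (syntaxin) and Snap25 on the plasma membrane wind into a SNARE complex that pulls the membranes together. Syt1 (synaptotagmin) sits in the vesicle membrane, binds calcium and triggers fusion, and complexins bind the SNARE complex, hold it ready and support the triggered step. Sv2b is a vesicle glycoprotein with the fold of a transporter that takes part in calcium-regulated release, and SV2 proteins are entry points for botulinum toxin. Vamp2 and other SNAREs also serve secretion outside the nervous system, and Snap25, Stx1a and Syt1 are used by endocrine cells too.

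In the RefSeq gene table of mouse assembly GRCm38.p6 the members lie on separate stretches of 6 chromosomes: Snap25 at chr2:136713439-136782428, Cplx1 at chr5:108518554-108550027, Stx1a at chr5:135023482-135051100, Sv2b at chr7:75114894-75309262, Syt1 at chr10:108497650-109010980, Vamp2 at chr11:69088528-69092381 and Cplx2 at chr13:54301964-54383923. The bases just upstream of the start are shown for the complexin genes, which differed in how constant their brain level was across strains, and for Syt1, which had a second tissue with clear signal. Each is the 250 bases before a listed RefSeq start on GRCm38.p6, 5′ to 3′ on the gene's strand, with motif matches in capitals.
Cplx1 promoter, chr5:108550028-108550277, minus strand: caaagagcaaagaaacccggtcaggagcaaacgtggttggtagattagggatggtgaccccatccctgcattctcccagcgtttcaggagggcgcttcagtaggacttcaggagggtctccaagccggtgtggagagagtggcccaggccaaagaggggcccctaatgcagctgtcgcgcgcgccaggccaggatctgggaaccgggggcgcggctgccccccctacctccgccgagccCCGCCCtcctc
Cplx2 promoter, chr13:54302306-54302555, plus strand: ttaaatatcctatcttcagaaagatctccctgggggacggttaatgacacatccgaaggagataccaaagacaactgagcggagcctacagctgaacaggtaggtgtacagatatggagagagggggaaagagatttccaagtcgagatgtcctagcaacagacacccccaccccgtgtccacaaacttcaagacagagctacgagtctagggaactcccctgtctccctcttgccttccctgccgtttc
Syt1 promoter, chr10:109010976-109011225, minus strand: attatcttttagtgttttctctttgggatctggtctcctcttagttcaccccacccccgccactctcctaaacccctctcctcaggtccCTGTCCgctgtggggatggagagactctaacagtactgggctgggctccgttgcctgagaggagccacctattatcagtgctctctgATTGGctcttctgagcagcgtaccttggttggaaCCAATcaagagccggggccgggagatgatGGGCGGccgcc
The Cplx1 stretch was 64.8% G and C, that of Cplx2 50.8% and that of Syt1 56.4%. The letters searched, on both strands, were TATAAA for the TATA box, CCAAT for the box of that name, GGGCGG for the GC box and TGACG for part of a cAMP response element. For the RE1 element, bound by REST, a repressor of neuronal genes, the left part was searched as CAGCACC and the right part as GGACAG. A match on the minus strand appears as its reverse complement, and no match overlapped another. Counted to the most upstream base of the match, Cplx1 held a GC box 11 bases before the start. Syt1 held a GC box at 11, CCAAT at 40 and, on the minus strand, at 74, and GGACAG on the minus strand at 161. Cplx2 held none of the letters in this window. The Cplx2 window precedes a listed start that lies inside the gene span given above, and the bases before that span were not searched. RefSeq starts were listed for 5 of the 7 members, 9 in all (Sv2b has 4 and Syt1 has 2). Over these 9 stretches, GGGCGG was in 3 against 32.7% of 32851 RefSeq promoters of the same length, TATAAA in 2 against 12.4%, GGACAG in 2 against 18.7%, CCAAT in 1 against 33.8%, TGACG in 1 against 17.8% and CAGCACC in 0 against 5.7%. The remaining matches were a GC box at 74 and TGACG at 144 of Stx1a, and in Sv2b TATAAA on the minus strand at 50 and GGACAG at 113 of the most distal start and TATAAA, again on the minus strand, at 232 of the next. A match is a run of letters and not a shown site.

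The tissue labels were checked on marker genes, and all 12 measured neuron markers were highest in brain, all 7 hepatocyte markers in liver, all 7 kidney tubule markers in kidney and 6 of 7 lung epithelium markers in lung. Across the arrays the median over all clusters lay between 5.89 and 6.36. In brain it was 6.13 in CAST, 6.07 in PWK and 6.03 in WSB, 0.10 higher in CAST than in WSB, whereas the median CAST minus WSB difference over the genes tested in brain was 0. Comparisons that centring each array on its median would change are named below. Sex-linked genes went against the label in 2 arrays. In PWKxCAST brain replicate 9, whose label is female, Xist stood at 3.98 and Eif2s3y at 3.83; in PWKxWSB liver replicate 8, whose label is male, they stood at 10.7 and 4.53. Leaving both out changed 2 calls for the members, given with the crosses below. PWKxPWK brain replicate 1 stood apart for Cplx1, at 12.17 against 12.49 for the next lowest of its group. Its mean over 12 neuron markers was 11.25, against 11.29 to 11.40 in its 5 groupmates, its mean over 9 astrocyte markers 11.32 against 11.36 to 11.48, and its oligodendrocyte mean 11.17, within 11.06 to 11.38.

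All 7 genes were far higher in brain than in kidney, liver and lung, and for each of them every brain array lay above every array of the other tissues. As a gauge of background signal on these arrays, the 5th to 95th percentile of 1157 olfactory and vomeronasal receptor genes, which are not known to be active in these tissues, was 2.81 to 4.79 in kidney, 2.99 to 5.04 in liver and 2.66 to 4.66 in lung. Background depends on the probes, so this range is no threshold of detection and serves only to mark means that lie within it. For 6 members, whose mean outside brain was above this range, the difference between brain and the mean of the other tissues ran from 2.82 for Vamp2 to 7.33 for Snap25. The mean of Sv2b lay within the range in all 3 tissues, so its difference is given as a bound. A mean above the range does not show detection. Snap25, Cplx1 and Stx1a were under the filter on low signal, described below, in all 3 tissues, so background may limit their fold differences too. As the background for such comparisons, limma called 92.9% of all 18820 genes in this contrast (adjusted p under 0.05), 36.2% as higher in brain and 56.7% as lower, so the call itself separates few genes. Of all genes 9.01% were called and higher in brain by at least 2, and all 7 members were among them. In bulk tissue, fewer cells of a type and less RNA per cell cannot be told apart. Two-sided limma tests on 36 cross-by-tissue means, adjusted by Benjamini-Hochberg over all genes, gave each member an adjusted p of 2.76e-299 or less.

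Among the SNAREs, Snap25 had the largest brain difference among the 6 members whose means elsewhere were above the receptor range. Its brain signal ran from 12.74 through a median of 12.97 to 13.16, against 4.65, 5.16 and 8.05 in kidney, 4.93, 5.87 and 7.67 in lung and 4.94, 5.58 and 6.49 in liver. The gap between the lowest brain array and the highest other array, a kidney, was 4.69, and brain exceeded the mean of the other tissues by 7.33 ± 0.06 (SE), or 161-fold. The kidney and lung values had a long upper tail that liver lacked.

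Stx1a stood at 9.69, 10.13 and 10.75 in brain (lowest, median and highest), at 5.68, 6.11 and 6.57 in lung, at 5.41, 5.86 and 6.27 in kidney and at 5.28, 5.90 and 6.45 in liver. Its brain difference was 4.20 ± 0.02 (SE), 18.4-fold, and the distributions of the other tissues overlapped along most of their length. Vamp2 had the smallest brain difference of the members. It ran from 12.57 through 12.97 to 13.15 in brain, 9.89 through 10.35 to 10.85 in kidney, 8.69 through 9.26 to 9.77 in liver and 10.53 through 10.78 to 11.05 in lung. No liver array reached the lowest kidney or lung array, kidney and lung overlapped, and the gap from the highest lung array up to the lowest brain array was 1.52. The brain difference was 2.82 ± 0.02 (SE), 7.04-fold.

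The calcium sensor Syt1 had a second level in liver. It measured 12.75, 12.92 and 13.03 in brain (lowest, median and highest), 7.67, 9.69 and 10.54 in liver, 4.81, 5.66 and 7.45 in kidney and 5.46, 6.37 and 7.33 in lung. Every liver array was above every kidney and lung array, and kidney and lung overlapped. Brain exceeded liver by 3.27, the smallest brain-to-liver difference of the members, and the mean of the other tissues by 5.68 ± 0.04 (SE), 51.4-fold.

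Of the complexins, Cplx1 stood at 12.17, 12.57 and 12.85 in brain, at 4.70, 5.23 and 6.78 in kidney, at 4.21, 5.10 and 5.82 in liver and at 4.98, 5.54 and 6.47 in lung, again as lowest, median and highest. Its brain difference was 7.22 ± 0.04 (SE), 149-fold, with a gap of 5.40 between brain and the highest kidney array. In liver the Cplx1 mean of 5.11 was barely above the 95th percentile of the receptor genes, 5.04. Cplx2 measured 10.08, 10.62 and 11.04 in brain, 6.43, 6.76 and 7.28 in kidney, 6.12, 6.45 and 6.74 in lung and 5.67, 6.37 and 7.03 in liver. The brain difference was 4.05 ± 0.02 (SE), 16.6-fold, and the other tissues overlapped. Sv2b had medians of 4.56 in kidney, 4.63 in liver and 4.47 in lung, which overlapped, with highest arrays at 5.83, 5.18 and 6.13. In brain it ran from 11.74 through 12.09 to 12.39. Its measured difference of 7.51 ± 0.03 (SE) sets brain against background signal. With the 95th percentile of the receptor genes in place of its lower means, brain was at least 154-fold higher (7.26 on the log2 scale).

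**Figure D1:**
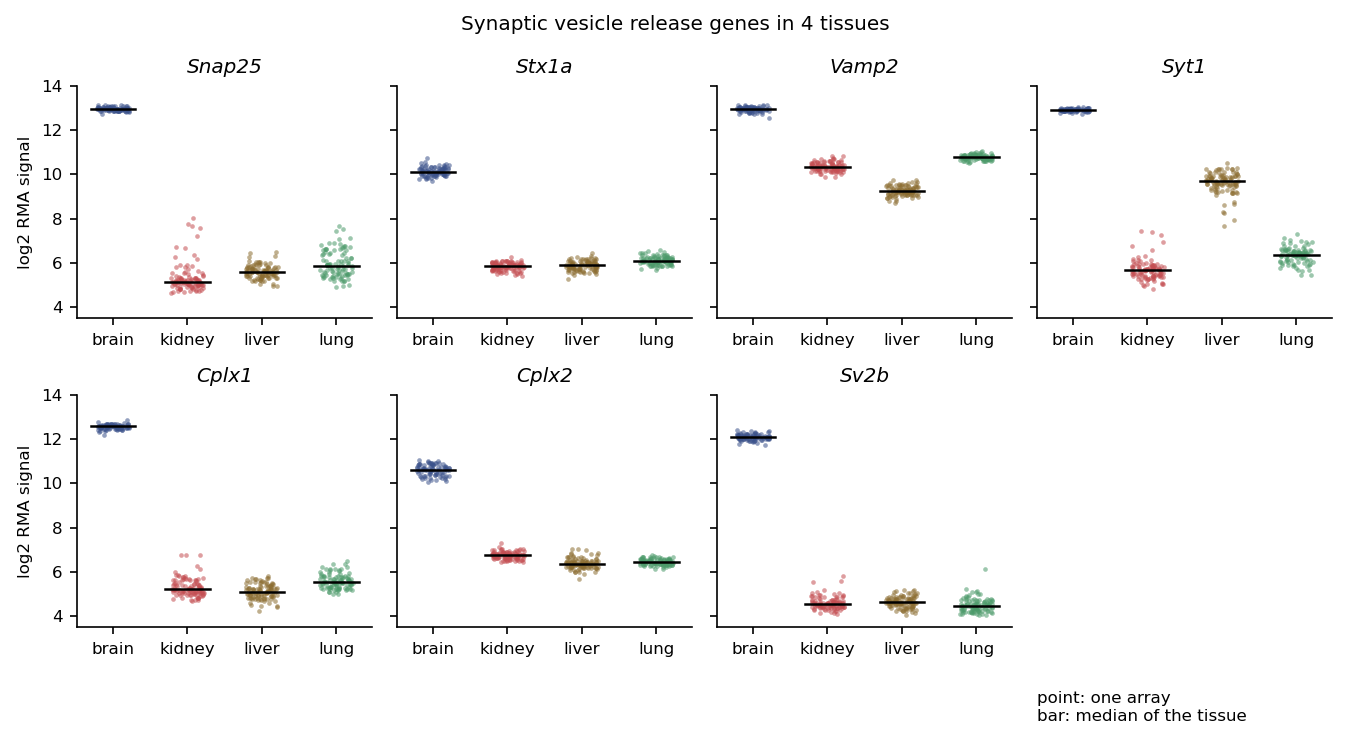
Signal of the 7 release genes (log2 RMA signal, vertical axis) in brain, kidney, liver and lung; each point is 1 array and each bar the tissue median. Every brain array lies above all other arrays of the same gene, Vamp2 has medians of 9.26 to 10.78 in the other tissues, and Syt1 has a median of 9.69 in liver.

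Set against single tissues, all 7 members were called higher in brain each time, where 90.2% of all genes were called against kidney, 95.6% against liver and 90.8% against lung in either direction. Leaving aside Sv2b, the differences ran from 2.60 (Vamp2) to 7.63 (Snap25) against kidney, from 3.27 (Syt1) to 7.44 (Cplx1) against liver and from 2.17 (Vamp2) to 7.0 (Snap25) against lung. Outside the brain the tissues also differed for most members, as they did for most genes. Between kidney and liver 5 of 7 were called (92.7% of all genes), with Syt1 lower in kidney by 3.96 ± 0.04 (SE) and Vamp2 higher by 1.08; for Stx1a the difference was -0.03 (95% interval -0.08 to 0.01) and for Sv2b -0.03 (-0.10 to 0.03). Between kidney and lung 7 of 7 were called (91.5% of all genes), from -0.66 for Syt1 to 0.30 for Cplx2. Between liver and lung 7 of 7 were called (95.6% of all genes), from -1.51 for Vamp2 to 3.30 for Syt1, and the Cplx2 difference of -0.07 became 0.05 when each array was centred on its median. The differences of Sv2b outside the brain are between signals within the background range. So the order outside brain was lung, kidney, liver for Vamp2 and liver, lung, kidney for Syt1, while for Stx1a kidney and liver did not differ beyond their spread.

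The release machinery at large was described through lists of related genes, some of which include members. Of the 4 measured neuronal SNAREs 4 were called higher in brain. Snap25, Stx1a and Vamp2 are members, so the list adds only Vamp1, the other synaptobrevin, at 4.68. The median of the list, members included, was 4.44, against -0.12 over all genes. SNAREs of other cells and compartments were divided much as all genes were: 8 of 24 were called higher in brain and 16 lower (median -0.26), against 36.2% and 56.7% of all genes, with the largest values at -3.83 for Vamp8, a SNARE of endosomes and secretory granules, -2.35 for Snap23, the widely used relative of Snap25, and -1.84 for Vamp5. Of the complexins 3 of 4 were called higher, of which Cplx1 and Cplx2 are members. Cplx3 was 1.84 above the other tissues and Cplx4 differed by -0.02.

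Of 17 synaptotagmins 15 were called higher in brain and 2 lower (median 3.86). The largest besides Syt1 were Syt4 (5.67), Syt11 (5.33) and Syt5 (5.24), and the lower ones, named after their values were seen, were Syt15 (-0.60) and Syt8 (-0.25). All 4 genes of the SV2 family, the member Sv2b included, were called higher (median 5.65), with Svop at 5.68, Sv2a at 5.63 and Sv2c at 5.08. All 16 vesicle membrane and associated proteins were called higher (median 4.73), led by the vesicular glutamate transporter Slc17a7 (7.02), the synapsin Syn1 (6.96) and Rab3c (6.37). Priming, docking and active zone genes were called higher in 21 of 22 cases (median 4.51), led by Cadps (7.23), Napb (6.08) and Rimbp2 (5.44); the exception, Unc13b, was at -0.08 and was picked out after its value was seen. All 12 genes of vesicle endocytosis were called higher (median 3.92), with Snap91 at 5.83, Pacsin1 at 5.77 and Dnm1 at 5.64. The 12 neuron markers, which include no member, were all called higher too (median 5.29), so the members did not stand apart from neuronal genes at large by this count.

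**Figure D2:**
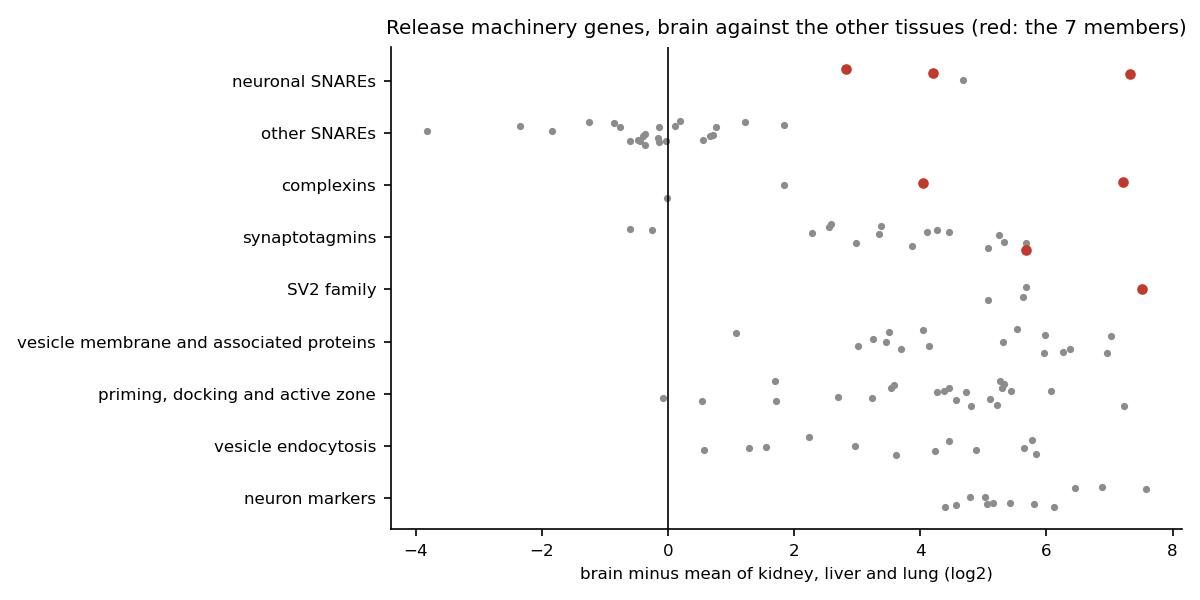
Difference between brain and the mean of kidney, liver and lung (log2, horizontal axis) for the genes of each list (vertical axis); each point is 1 gene, red points are the 7 members, and points are spread vertically only for legibility. The genes lie almost wholly to the right of 0, except the SNAREs of other cells and compartments, of which 16 of 24 were called lower, where 56.7% of all genes were.

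Within brain the members ranged from among the steadiest genes to typical ones. The spread of single arrays about their cross-by-sex mean (residual SD) was 0.05 for Syt1, and only 0.230% of the 11292 genes tested in brain had a value this low or lower. It was 0.08 for Snap25 (4.51% of genes at or below), 0.08 for Vamp2 (6.12%), 0.10 for Cplx1 (15%) and 0.10 for Sv2b (18.4%). Cplx2 and Stx1a were no steadier than the typical gene, at 0.15 (62.6%) and 0.17 (71.2%), where the median over all genes tested was 0.14. High signal and small spread go together on these arrays: the 264 genes with a brain mean of 12 or more had a median residual SD of 0.08.

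An F-test over the 9 crosses asked whether the brain level was constant across strains and F1 crosses. It called 6 of 7 members, against 85.1% of all genes tested, so a call here is the usual outcome. The range of the cross means was 0.07 for Syt1 (adjusted p = 0.0453, limma), 0.11 for Snap25 (0.0515), 0.16 for Cplx1 (0.016) and 0.22 for Vamp2 (5.43e-06). It was wider for Sv2b, from 11.93 to 12.29 (3.06e-07), for Stx1a, from 9.99 to 10.40 (0.000112), and for Cplx2, from 10.25 to 10.86 (1.16e-13). The SD of the 9 cross means was at or below that of Syt1 in 0.558% of genes and at or below that of Snap25 in 2.69%, against 90.7% for Cplx2. The 264 genes with a brain mean of 12 or more had a median SD of cross means of 0.05, where Syt1 had 0.03 and Snap25 0.04. Syt1, which was called, and Snap25, which was not, both lay close to the threshold. Without the brain array whose sex label did not match, the adjusted p (limma) was 0.0506 for Syt1 and 0.0444 for Snap25. Leaving out single arrays in turn ended the Syt1 call in 47 of 85 cases and gave a Snap25 call in 23 of 85. With a random block for animals of neighbouring numbers the adjusted p was 0.216 for Syt1 and 0.0672 for Cplx1.

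**Figure D3:**
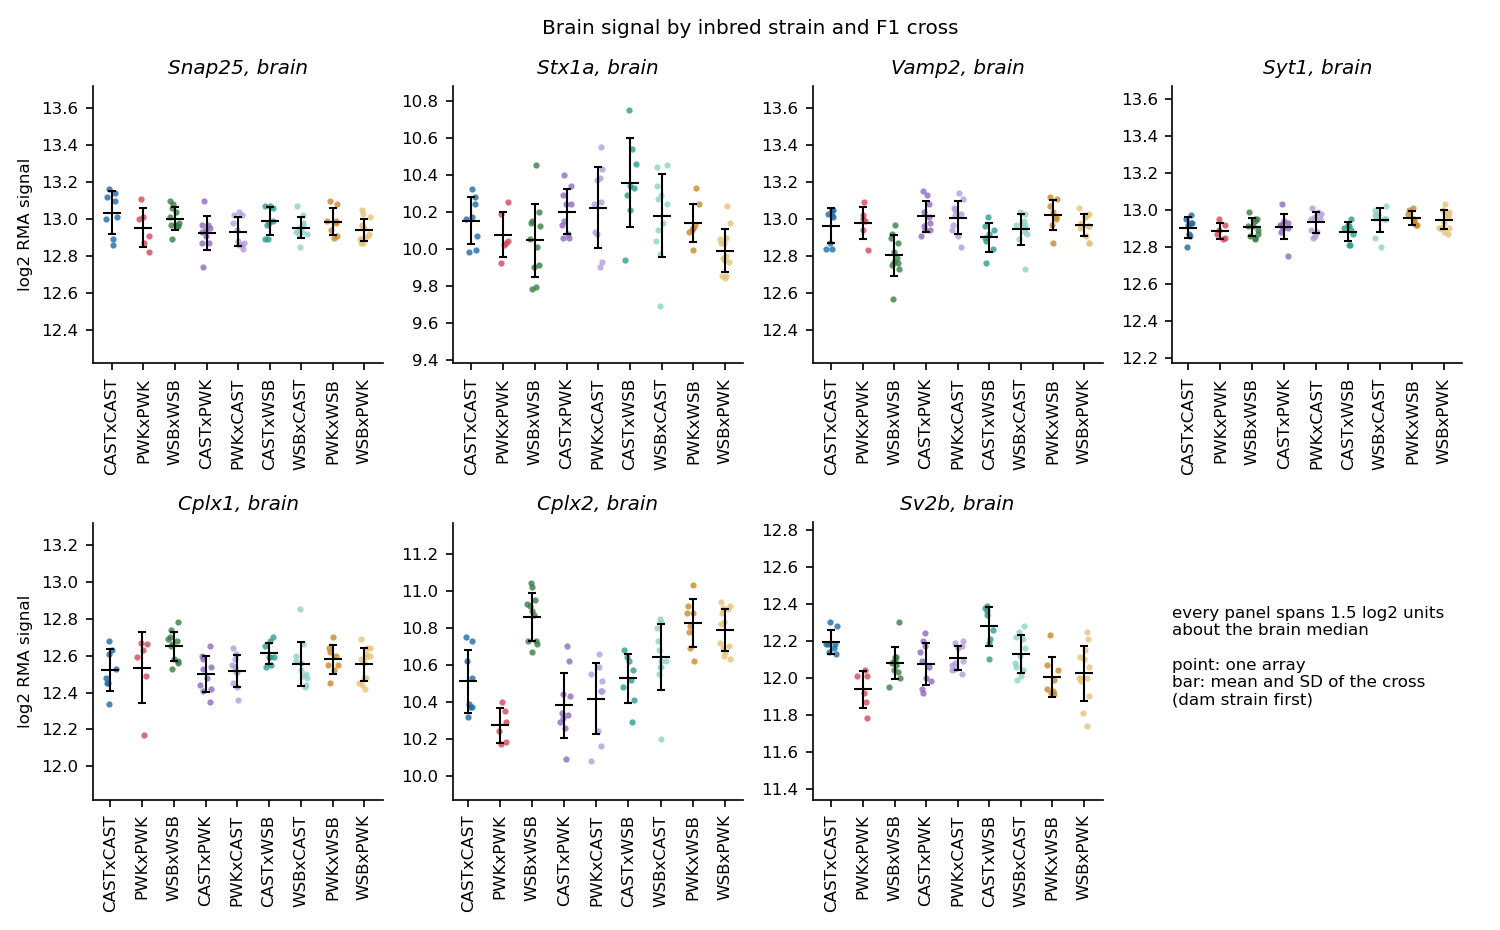
Brain signal of the 7 members (log2 RMA signal, vertical axis) in the 3 inbred strains and 6 F1 crosses, dam strain first; each point is 1 array, bars are the mean and SD of the cross, and all panels span the same number of log2 units. Cplx2 is high in WSBxWSB, PWKxWSB and WSBxPWK and low in PWKxPWK, whereas Syt1 cross means stay within 0.07.

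Between the inbred strains, the plainest differences in brain were those of Cplx2 against WSB and, smaller, of Sv2b between CAST and PWK. The calls for Vamp2 and Cplx1, and the other calls for Cplx2 and Sv2b, depended on single arrays or on the fit. The 3 strain contrasts share arrays, since each strain enters 2 of them. Sexes were weighted equally, and PWKxPWK brain replicates 1 and 3 were the only male PWK brains, so each of them weighed more than a female PWK brain. The sequences of the probes were not compared with the genomes of the strains, so these are differences in signal. Of the members 2 of 7 were called between CAST and PWK, 4 of 7 between CAST and WSB and 4 of 7 between PWK and WSB, against 40.9%, 52.4% and 40.4% of all genes tested.

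For the plasma membrane SNARE Snap25, the inbred brains measured 12.86, 13.05 and 13.16 in CAST, 12.82, 12.95 and 13.11 in PWK and 12.89, 12.98 and 13.10 in WSB (lowest, median and highest). The strains overlapped almost fully, and no contrast was called. CAST minus PWK was called when 3 of 85 arrays were left out in turn, at 0.13 (adjusted p = 0.0118, limma) without CASTxCAST brain replicate 1. The 95% intervals were 0 to 0.17 for CAST minus PWK, -0.04 to 0.11 for CAST minus WSB and -0.13 to 0.03 for PWK minus WSB. Stx1a, its partner, also overlapped, with medians of 10.16, 10.04 and 10.05, and was not called; its intervals reached from -0.14 to 0.26. For the vesicle SNARE Vamp2 the brains measured 12.84, 13.01 and 13.05 in CAST, 12.83, 13 and 13.09 in PWK and 12.57, 12.79 and 12.97 in WSB. Vamp2 was lower in WSB than in CAST by 0.16 ± 0.04 (SE, adjusted p = 0.00044, limma) and lower than in PWK by 0.15 ± 0.04 (0.00369), with overlap at the top of the WSB range. With each array centred on its median these differences were 0.06 (adjusted p = 0.266) and 0.11 (0.0736), and without PWKxPWK brain replicate 3 the latter was 0.12 (0.0597).

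The calcium sensor Syt1 was the most even member: 12.80, 12.93 and 12.97 in CAST, 12.84, 12.88 and 12.95 in PWK and 12.84, 12.91 and 12.99 in WSB. All ranges overlapped, and the 95% intervals were -0.06 to 0.06 for CAST minus PWK, -0.06 to 0.04 for CAST minus WSB and -0.07 to 0.04 for PWK minus WSB. With each array centred on its median, CAST minus WSB became -0.11 (adjusted p = 0.00193, limma).

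Cplx1 measured 12.34, 12.51 and 12.68 in CAST, 12.17, 12.61 and 12.67 in PWK and 12.53, 12.66 and 12.78 in WSB. It was higher in WSB than in CAST by 0.13 ± 0.05 (SE, adjusted p = 0.0138, limma) and higher than in PWK by 0.16 ± 0.05 (0.00982), with overlapping ranges. The latter rested on PWKxPWK brain replicate 1, without which PWK minus WSB was -0.05 (0.532), and without CASTxCAST brain replicate 1 CAST minus WSB was -0.11 (0.068).

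Cplx2 differed most. It measured 10.17, 10.26 and 10.40 in the 6 PWK brains, 10.32, 10.46 and 10.75 in the 8 CAST brains and 10.67, 10.89 and 11.04 in the 11 WSB brains (lowest, median and highest). Every WSB brain was above every PWK brain, while CAST lay between them and overlapped both. PWK was below WSB by 0.60 ± 0.08 (SE, 0.659 of the WSB signal, adjusted p = 1.47e-09, limma), CAST was below WSB by 0.36 ± 0.07 (1.45e-05), and CAST was above PWK by 0.24 ± 0.08 (0.0174). The last of these was 0.22 (0.0509) without CASTxCAST brain replicate 2, 0.23 (0.0797) without PWKxPWK brain replicate 1 and 0.18 (0.108) with centred arrays. The WSB differences were called in all of these fits.

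Sv2b measured 12.13, 12.18 and 12.30 in CAST, 11.78, 11.96 and 12.04 in PWK and 11.95, 12.08 and 12.30 in WSB. Every CAST brain was above every PWK brain, and WSB overlapped both. CAST was above PWK by 0.26 ± 0.06 (SE, adjusted p = 0.000157, limma). PWK minus WSB was -0.15 ± 0.05 (0.0215), and -0.08 (0.336) without PWKxPWK brain replicate 1 and -0.13 (0.0682) with array weights. CAST minus WSB was 0.11 ± 0.05 (0.0455); it was 0.01 (0.848) with centred arrays, and the adjusted p was 0.083 with the block for animals of neighbouring numbers and 0.0616 without the filter on low signal. Leaving out single arrays ended this call in 12 of 85 cases.

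Genes of the related lists were called in both directions between the inbred brains. Of all genes tested 40.9% were called for CAST minus PWK, 52.4% for CAST minus WSB and 40.4% for PWK minus WSB, so calls are common in any list. Of the 3 complexins tested, all were called lower in CAST and in PWK than in WSB (medians -0.36 and -0.44, against 0 and 0.02 over all genes tested). Cplx1 and Cplx2 among them are members, and each Cplx1 call was lost when 1 array was left out. Cplx3, a complexin best known from retina, differed by -1.36 between CAST and WSB, by -0.44 between PWK and WSB and by -0.92 between CAST and PWK. Among 4 neuronal SNAREs, Vamp1 was lower than in WSB by 0.43 in CAST and by 0.68 in PWK, opposite in sign to Vamp2. Of 4 SV2 genes, Svop was lower in PWK, by 0.62 than in CAST and by 0.47 than in WSB, like Sv2b in direction. Of 16 synaptotagmins 3 were called higher and 4 lower in CAST than in PWK, 2 and 4 in CAST than in WSB, and 1 and 3 in PWK than in WSB, with Syt12 at -0.53 between CAST and PWK and 0.59 between PWK and WSB.

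In the same order of contrasts, of 23 SNAREs of other cells 4 were called higher and 2 lower, 6 and 4, and 5 and 3, with Bet1 at 0.58 in the first and -0.53 in the third. Of 16 vesicle membrane proteins 2 were called higher and 2 lower, 1 and 4, and 1 and 5, with Vat1l at -0.49 against WSB in both contrasts. Of 22 priming and active zone genes 5 and 2, 8 and 4, and 4 and 1 were called higher and lower, with the mitochondrial docking gene Snph at -0.74 in the first and -0.84 in the second. Of 12 endocytosis genes 1 and 1, 3 and 6, and 1 and 5 were called, with the endophilin Sh3gl2 at -0.37 in CAST and -0.39 in PWK against WSB. The medians of these 4 lists lay between -0.08 and 0.05. In the same order 40.9%, 52.4% and 40.4% of all genes tested were called in either direction.

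Some markers of other brain cells were called between the strains too. Of all genes tested 40.9% were called for CAST minus PWK, 52.4% for CAST minus WSB and 40.4% for PWK minus WSB. Astrocyte, microglia, forebrain, cerebellar and hindbrain markers are not given here, nor is every contrast of the lists that are. Of 8 oligodendrocyte markers 6 were called lower in CAST than in PWK and 6 lower in CAST than in WSB, and 2 lower in PWK than in WSB, with none higher. Their mean was 10.85 in CAST (10.55 to 11.12), 11.26 in PWK (11.06 to 11.38) and 11.35 in WSB (11.07 to 11.57). Of 7 brain endothelial markers 5 were called higher in CAST than in PWK, and of 7 choroid plexus markers 6 lower in CAST than in WSB. The mean of the neuron markers was 11.38 in CAST (11.31 to 11.48), 11.35 in PWK (11.25 to 11.40) and 11.39 in WSB (11.30 to 11.48). Of 5 striatal neuron markers 3 were called lower in PWK than in WSB, with means of 10.36 in CAST, 10.04 in PWK and 10.38 in WSB. The part of these cell types in the strain differences of the members was not tested.

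Reciprocal F1 crosses carry the same autosomes with the dam and sire exchanged, and none of the members was called between them. The counts were 0 of 7 in each pair (0, 3 and 1 of 7 at an unadjusted p under 0.05, in the order below), where limma called 0.151% of all genes tested between CASTxPWK and PWKxCAST, 0.779% between CASTxWSB and WSBxCAST and 0.248% between PWKxWSB and WSBxPWK. The first pair had differences from -0.03 to 0.02 (95% intervals within -0.15 to 0.14) and the third from -0.02 to 0.15 (-0.11 to 0.29). In the second, the members with an unadjusted p under 0.05 were Sv2b, 0.17 higher in CASTxWSB (adjusted p = 0.0767), Stx1a, 0.23 higher (0.147), and Syt1, 0.06 lower (0.278). The 95% intervals over all members reached from -0.27 to 0.38, so differences of that size are not shown to be absent. With array weights 2 members were called in that pair, Sv2b at 0.19 (adjusted p = 0.00352) and Syt1 at -0.07 (0.041).

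F1 brains were called away from the mean of their parents for 3 combinations of member and strain pair. Between the F1 crosses and the mid-parent value limma called 0 of 7 for CAST and PWK (18.9% of all genes tested; 1 of 7 at an unadjusted p under 0.05), 1 of 7 for CAST and WSB (37.1%) and 2 of 7 for PWK and WSB (10%). Cplx2 stood at 10.62, 10.84 and 11.03 in PWKxWSB and at 10.63, 10.82 and 10.94 in WSBxPWK, so that all F1 brains of this pair lay above every PWK brain and within or just below the WSB range. Their mean exceeded the mid-parent value by 0.25 ± 0.05 (SE, adjusted p = 0.000725, limma). In the CAST and WSB pair, in contrast, the Cplx2 F1 brains ran from 10.20 to 10.85, -0.10 from the mid-parent value (95% interval -0.20 to 0), and those of CAST and PWK from 10.08 to 10.70, at 0.02 (-0.09 to 0.12). Whether these deviations differ between the pairs was not tested.

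Vamp2 was 0.11 ± 0.03 (SE) above the mid-parent value in the PWK and WSB pair (adjusted p = 0.00479, limma), with F1 brains at 12.87 to 13.12 against 12.57 to 12.97 in WSB and 12.83 to 13.09 in PWK. Stx1a was 0.19 ± 0.05 above it in the CAST and WSB pair (0.00411), where CASTxWSB measured 9.94, 10.33 and 10.75 and WSBxCAST 9.69, 10.24 and 10.45, with wide overlap. Snap25 was at -0.07 in the CAST and PWK pair (0.0799). Between female and male brains limma called 0 of 7 members (0 at an unadjusted p under 0.05) and 0.0708% of all genes tested, and the differences lay between -0.03 and 0.03 with 95% intervals within -0.10 to 0.08.

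Outside the brain 2 members passed the filter on low signal in all 3 tissues, Vamp2 and Cplx2, and Syt1 passed in liver; a gene was tested within a tissue if its mean there was at or above the 40th percentile. The members that did not pass are given as values only, apart from a fit without the filter named as such. The plainest strain difference was that of Syt1 in liver. It measured 7.67, 8.75 and 9.28 in the 13 WSB livers, 9.5, 9.58 and 9.91 in the 9 PWK livers and 9.64, 10.10 and 10.54 in the 11 CAST livers.

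Every WSB liver was below every PWK and CAST liver, and PWK and CAST overlapped. Syt1 was lower in WSB than in CAST by 1.33 ± 0.10 (SE, adjusted p = 3.04e-20, limma), lower than in PWK by 0.91 ± 0.11 (2.13e-11), and higher in CAST than in PWK by 0.42 ± 0.12 (0.00131). Liver F1 medians lay at 9.86 in CASTxWSB, 9.73 in WSBxCAST, 9.33 in PWKxWSB and 9.64 in WSBxPWK, and the lowest F1 array of these crosses, at 9.16, lay within the upper end of the WSB range. The WSB livers were also the most spread, at 7.67 to 9.18 in 7 males and 7.96 to 9.28 in 6 females. The mean of the hepatocyte markers was 13.35 in CAST, 13.43 in PWK and 13.38 in WSB, and that of the neuron markers in liver 5.34, 5.40 and 5.39.

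Vamp2 differed between strains in kidney and liver in a different order from that in brain. In kidney it measured 10.32, 10.59 and 10.85 in PWK, 10.09, 10.25 and 10.32 in CAST and 9.89, 10.11 and 10.37 in WSB. PWK and CAST met only at 10.32, PWK and WSB overlapped slightly and CAST and WSB widely. PWK was above CAST by 0.34 ± 0.05 (SE, adjusted p = 5.63e-09, limma) and above WSB by 0.45 ± 0.05 (1.04e-13), and CAST minus WSB was 0.11 (95% interval 0.01 to 0.21, adjusted p = 0.0526). In liver, where Vamp2 measured 9.12 to 9.73 in PWK, 8.95 to 9.41 in CAST and 8.69 to 9.61 in WSB, PWK was above CAST by 0.34 (6.37e-05) and above WSB by 0.36 (1.04e-05). In lung the differences were smaller: CAST minus PWK -0.08 (0.042), CAST minus WSB 0.08 (0.0317) and PWK minus WSB 0.16 (1.22e-05). With centred arrays none of the lung differences was called, the last being 0.06 (0.166), and with that block CAST minus PWK (0.136) and CAST minus WSB (0.0749) in lung were not.

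**Figure D4:**
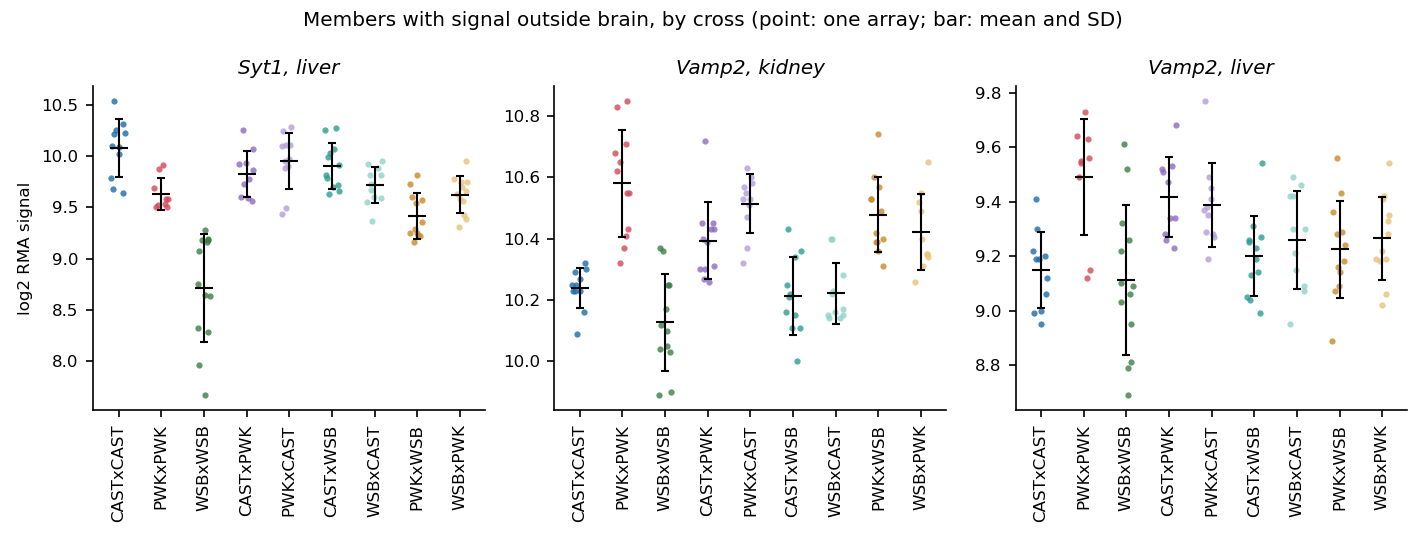
Signal of Syt1 in liver and of Vamp2 in kidney and liver (log2 RMA signal, vertical axis) by inbred strain and F1 cross, dam first; each point is 1 array and bars are the mean and SD of the cross. WSBxWSB livers, at 7.67 to 9.28, lie below the other inbred strains for Syt1, and PWKxPWK kidneys have the highest Vamp2 median, 10.59.

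Cplx2 varied little outside the brain. In kidney CAST was below PWK by 0.17 ± 0.06 (SE, adjusted p = 0.012, limma) and in liver below WSB by 0.23 ± 0.09 (0.0282), and with the block for animals of neighbouring numbers neither was called (0.095 and 0.128). By count, the F-test over the crosses called 2 of 2 members tested in kidney (91.1% of all genes tested there), 3 of 3 in liver (85.8%) and 1 of 2 in lung (93.9%). The inbred contrasts, in the order CAST minus PWK, CAST minus WSB and PWK minus WSB, called 2, 0 and 1 of 2 in kidney (60.1%, 59.6% and 60.7%), 2, 2 and 2 of 3 in liver (50.1%, 57.0% and 55.3%) and 1, 1 and 1 of 2 in lung (62.7%, 59.9% and 61.4%). With 2 or 3 members tested, these counts do not set the members apart from the genes at large.

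Of the members under the filter, lung gave the plainest values. Snap25 in lung measured 5.37, 6.48 and 7.46 in CAST, 4.93, 5.37 and 5.86 in PWK and 5.36, 5.67 and 7.67 in WSB, with overlap between all strains. In the fit without the filter CAST was above PWK by 1.09 (adjusted p = 1.43e-05, limma) and above WSB by 0.52 (0.046). Syt1 in lung measured 6.40, 6.69 and 7.11 in PWK, 6.21, 6.49 and 6.64 in CAST and 5.46, 5.85 and 6.65 in WSB, and in that fit WSB was below PWK by 0.86 (4.81e-11) and below CAST by 0.60 (4.41e-06). The mean of the neuron markers in lung was 6.43 in CAST (6.16 to 6.60), 6.0 in PWK (5.83 to 6.15) and 6.53 in WSB (6.34 to 6.90), and that of the hepatocyte markers 8.62, 8.69 and 8.73; their part in these differences was not tested. In liver Stx1a was higher in WSB than in PWK by 0.36 (0.000325) and than in CAST by 0.23 (0.0157). In kidney Syt1 was lower in CAST than in PWK by 0.53 (0.0137) and Cplx1 higher in PWK than in WSB by 0.45 (0.0177). There the mean of the chromaffin and sympathetic markers was 6.23 in CAST (highest 7.45), 6.94 in PWK (9.68) and 6.78 in WSB (9.33), that of the adrenal cortex markers 4.88, 5.97 and 5.69, and that of the neuron markers 5.65, 5.69 and 5.91; their part in these differences was not tested.

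Whether a strain difference was the same in brain as in the other tissues was tested as an interaction, brain minus the mean of kidney, liver and lung, for the 6 members above the filter over all arrays (Sv2b was below it). Of these 2 of 6 were called in each contrast, against 29.5% of all genes tested for CAST minus PWK, 36.9% for CAST minus WSB and 31.8% for PWK minus WSB. Cplx2 was called in all 3, at 0.32 ± 0.10 (SE, adjusted p = 0.0085, limma), -0.22 (0.043) and -0.53 ± 0.09 (5.95e-07). Within single tissues, PWK minus WSB for Cplx2 was -0.60 in brain, 0.09 in kidney (95% interval -0.03 to 0.21), -0.13 in liver (-0.33 to 0.06) and -0.11 in lung (-0.22 to -0.01, adjusted p = 0.0528). Vamp2 was called for CAST minus PWK at 0.24 ± 0.08 (0.00937), being even in brain and lower in CAST in kidney and liver. Syt1 was called for CAST minus WSB at -0.61 ± 0.16 (0.00105) and PWK minus WSB at -0.75 ± 0.17 (0.000174). Its brain levels were even, and its liver and lung levels were lowest in WSB. In the fit without the filter PWK minus WSB for Syt1 was 0.91 in liver, 0.86 in lung and 0.4 in kidney. There CAST minus WSB was 1.33 in liver, 0.6 in lung and -0.14 in kidney. With centred arrays the CAST minus PWK values were 0.25 (0.0607) for Cplx2 and 0.16 (0.0881) for Vamp2, and Cplx2 for CAST minus WSB was -0.19 (0.0947) in the animals with all 4 tissues and -0.22 (0.0525) without the filter.

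Variation between animals of the same cross and sex was then compared between members, on values with the cross-by-sex mean removed. Over the 85 brains 1 of 21 pairs passed a permutation test of 100000 resamples within cross and sex, adjusted over the 21 pairs. Cplx1 and Syt1 were inversely related (Pearson r = -0.59, Spearman rho = -0.57, p = 1e-05 for both, the smallest the resamples can give, adjusted p = 0.00021). The r was -0.55 without the 2 arrays farthest from the median of Cplx1 and -0.52 with the means of runs of neighbouring animal numbers removed. With each array centred on its median it was -0.04 (adjusted p = 0.772), and 17 of 21 pairs then passed, where the same term has been subtracted from every gene of an array. The array median itself varied by 0.04 (SD) within groups and had r between -0.24 and 0.12 with the members, none of 7 relations passing (lowest adjusted p = 0.154).

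Markers of brain cell types moved with several members over the same animals. Of 70 relations between the members and 10 marker lists 18 passed the permutation test adjusted over the 70. Syt1 was inversely related to the mean of the oligodendrocyte markers (r = -0.63, rho = -0.62, adjusted p = 0.000233; -0.62 without the 2 farthest arrays and -0.63 with run means removed), and Cplx1 directly (r = 0.57, rho = 0.57, adjusted p = 0.000233; 0.54 and 0.61). With centred arrays these became -0.09 and 0.68. With the 12 general neuron markers the signs were again opposite, negative for Syt1 (r = -0.42, rho = -0.43, adjusted p = 0.00359; -0.36, -0.36 and, centred, 0.07) and positive for Cplx1 (r = 0.56, rho = 0.52, adjusted p = 0.000233; 0.51, 0.55 and 0.73). Syt1 rose with forebrain neuron markers (r = 0.48, rho = 0.44, adjusted p = 0.00152; 0.43, 0.44 and, centred, 0.64) and fell with hindbrain and cord neuron markers (r = -0.44, rho = -0.42, adjusted p = 0.00359; -0.42, -0.48 and, centred, -0.38). Cplx1 fell with forebrain neuron markers (r = -0.33, rho = -0.32, adjusted p = 0.014; -0.32, -0.33 and, centred, 0.03). Cplx1 rose with hindbrain and cord markers (r = 0.33). Stx1a had the signs of Syt1 for forebrain and hindbrain markers (r = 0.35 and -0.37, rho = 0.39 and -0.37, adjusted p = 0.0145 and 0.0131). These were 0.37 and -0.40 without the 2 farthest arrays and 0.32 and -0.36 with run means removed. Cplx2 was related to striatal neuron markers (r = 0.39, rho = 0.41, adjusted p = 0.00789, and 0.42 and 0.37 in these fits). The other relations that passed were with non-neuronal markers. Syt1 had r = -0.44 with both astrocyte and endothelial markers (centred, 0.23 and 0.18), and Cplx1 0.44 and 0.36. Stx1a had 0.40 with microglia markers, and Sv2b 0.33 with microglia and 0.40 with endothelial markers. The labels name no brain region, and the part of regional makeup in these relations was not tested.

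Genes most like each member over the 85 brains, by Pearson r with cross-by-sex means removed and over all single-symbol genes, are given as a description. They were Emc10 (0.78) and Capns1 (0.67) for Cplx1, Rasgrp1 (0.72) and the cortical transcription factor gene Tbr1 (0.70) for Syt1, and Npy, a neuropeptide gene, and Rtn4r (both 0.67) for Stx1a. For Sv2b they were Pde1a (0.62) and Btbd10 (0.61), for Vamp2 5930403L14Rik (0.58) and Snrpa (0.57), for Cplx2 Lhx2 (0.52) and Socs7 (0.49) and for Snap25 Vsnl1 (0.50) and Shmt2 (0.45). Tbr1 is itself among the forebrain neuron markers related to Syt1 above.

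In kidney and lung, Snap25, Cplx1 and Syt1 varied together between animals. Of 63 pairs over kidney, liver and lung, 5 passed in kidney, 2 in liver and 3 in lung, adjusted over the 63. Snap25 and Syt1 had r = 0.80 in kidney (rho = 0.59, adjusted p = 0.000126; 0.76 without the 2 farthest arrays, 0.83 with run means removed) and 0.68 in lung (rho = 0.67, adjusted p = 0.000126; 0.64 and 0.70). Snap25 and Cplx1 had 0.70 in kidney (rho = 0.41, adjusted p = 0.000126; 0.61 and 0.70) and 0.73 in lung (rho = 0.71, adjusted p = 0.000126; 0.72 and 0.72). The lower rho in kidney goes with a few arrays far above the rest.

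Markers of neurons, peripheral nerve and neuroendocrine cells moved with these genes there. Of 105 relations with 5 marker lists, chosen after the data were seen, 10 passed in kidney, 4 in liver and 12 in lung. Snap25 in kidney followed the mean of the 12 neuron markers (r = 0.89, rho = 0.76, p = 1e-05, adjusted p = 0.000117; 0.86 without the 2 farthest arrays, 0.89 with run means removed, 0.88 centred) and in lung likewise (r = 0.76, rho = 0.71, p = 1e-05, adjusted p = 0.000117; 0.70, 0.78 and 0.61). In liver it was 0.42 (rho = 0.42, adjusted p = 0.00105; 0.40, 0.35 and 0.53). With peripheral nerve and Schwann cell markers Snap25 had r = 0.53 in kidney (rho = 0.35, adjusted p = 0.00105; 0.48, 0.53 and 0.53) and 0.59 in lung (rho = 0.60, adjusted p = 0.000117; 0.52, 0.61 and 0.51). With chromaffin and sympathetic markers it had 0.52 in kidney (rho = 0.51, adjusted p = 0.000117; 0.51, 0.43 and 0.52) and 0.42 in lung (rho = 0.40, adjusted p = 0.00138; 0.35, 0.41 and 0.37). With lung neuroendocrine markers it had 0.52 in kidney (rho = 0.52, adjusted p = 0.000117; 0.48, 0.44 and 0.52) and 0.43 in lung (rho = 0.42, adjusted p = 0.00098; 0.36, 0.46 and 0.35). Syt1 in kidney followed the neuron markers (r = 0.77, rho = 0.51, adjusted p = 0.000117; 0.70, 0.80 and 0.76) and the chromaffin markers (r = 0.43, rho = 0.33, adjusted p = 0.00157; 0.44, 0.40 and 0.43). The lung neuroendocrine list shares Uchl1 with the neuron list and Chga with the chromaffin list, so these relations are not independent. The genes most like Snap25 were the neuronal genes Stmn3 (0.90) and Nefl (0.74) in kidney and Nefl (0.82) and Vat1l (0.69) in lung. Stmn3 and Nefl are themselves among the 12 neuron markers, so their likeness repeats that relation. Syt1 in liver was most like Abca8a (0.74) and Sort1 (0.73). Vamp2 in kidney was most like Srebf2 (0.76), the gene of a sterol-responsive transcription factor.

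The kidney array with the most Snap25, WSBxPWK replicate 1 at 8.05, also had Stmn3 at 9.58 and Nefl at 7.13. Th and Dbh, enzymes of catecholamine synthesis, stood at 8.71 and 8.51 there. Chga, of the same chromaffin and sympathetic list, was at 6.41, where the kidneys had a median of 5.67 and a highest value of 10.97. The adrenal cortex gene Cyp11b1, 1 of 7 such markers, stood at 4.16. The other markers of these 2 lists are not given for single arrays. The next highest kidney array, PWKxPWK replicate 2 with Snap25 at 7.75, had Stmn3 at 8.08 but Th at 5.78 and Dbh at 5.65. In lung, WSBxWSB replicate 7 had Snap25 at 7.67 and Stmn3 at 7.56, and CASTxPWK replicate 9 had 7.55 and 7.80. These arrays were picked out after their values were seen, and the part of nerve or neuroendocrine tissue in the kidney and lung levels was not tested.

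**Figure D5:**
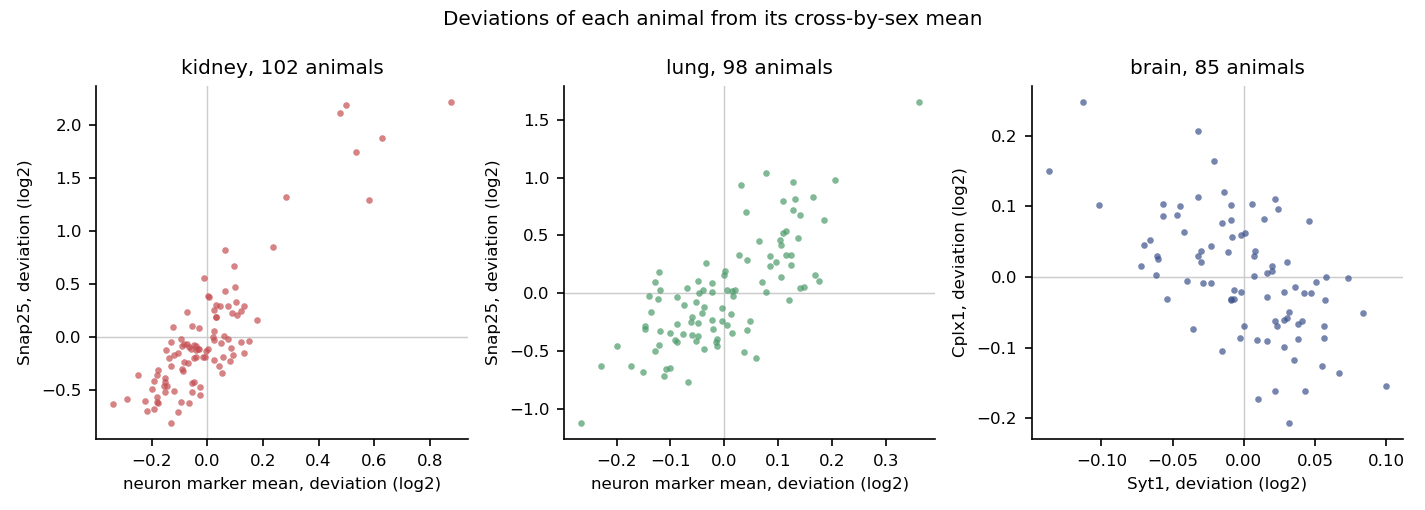
Deviation of each animal from the mean of its cross and sex (log2) for Snap25 (vertical axis) against the mean of 12 neuron markers (horizontal axis) in 102 kidneys and 98 lungs, and for Cplx1 against Syt1 in 85 brains; each point is 1 animal. Snap25 rises with the neuron markers in kidney (r = 0.89) and lung (r = 0.76), and Cplx1 falls as Syt1 rises in brain (r = -0.59, or -0.04 with each array centred on its median, which is not drawn).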

How the data were processed

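Log2 values, 1 per transcript cluster and array, were used as the authors deposited them. RMA and Affymetrix Expression Console appear in the submitters' processing notes; a joint normalisation of the tissues is assumed, as no source used here states it. Of 35556 clusters 21218 carried 1 symbol and 1881 several; 21185 of the former matched RefSeq's gene table (GRCm38.p6) by gene ID. For arrays, their number limits the precision. Groups were read from the labels; replicate numbers follow record order and pair nothing. Linear models with moderated variances and a trend (limma 3.58.1, R 4.3.3) were fitted on 18 cross-by-sex means within a tissue (genes at or above the 40th percentile) and 36 cross-by-tissue means across tissues, with Benjamini-Hochberg adjustment; called means an adjusted p under 0.05. Random blocks (animal, or runs of neighbouring animal numbers) used a correlation estimated on every 10th gene. No source used here gives plate, litter or collection day. Permutations used Python 3.11.15 and SciPy 1.17.1. Fits and permutations were tested on simulated data. All members are named, up to 3 genes per list by absolute difference among those called, and 2 per member by likeness. The members and lists were chosen with earlier results of these data known; relations with marker lists were chosen after the data were seen.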

Additional observations from a re-analysis of the deposited data

Results flagged for a closer look

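Of 91 combinations of a member and a group tested, 6 had an array apart from the rest of its group, by a test of the gap to the nearest array; about 1 in 20 groups would show this by chance. WSBxPWK kidney replicate 1 was the highest of 10 for Snap25 (8.05, next 5.37), Cplx1 (6.75, next 5.69) and Syt1 (7.45, next 5.88). PWKxPWK brain replicate 1 was the lowest of 6 for Cplx1 (12.17, next 12.49), and the SD of the group was 0.19 with it and 0.07 without it. PWKxPWK liver replicate 2 was the highest of 9 for Cplx2 (7.03, next 6.49), and CASTxPWK lung replicate 9 the highest of 10 for Sv2b (6.13, next 5.08).

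A strain difference differed between brain and the other tissues, by a limma interaction test, in 6 cases, 2 of 6 members in each contrast. These were CAST minus PWK for Cplx2 (0.32) and Vamp2 (0.24), CAST minus WSB for Cplx2 (-0.22) and Syt1 (-0.61), and PWK minus WSB for Cplx2 (-0.53) and Syt1 (-0.75). In the same order of contrasts 29.5%, 36.9% and 31.8% of all genes tested were called, so the counts are near the usual share. With centred arrays both CAST minus PWK calls were lost. Without the filter Cplx2 for CAST minus WSB was not called (adjusted p = 0.0525, limma).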

How the results depend on the processing

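The brain excess of the 7 members was called under every alternative run, and of the alternative values for single genes and pairs called under at least 1 setting 734 kept direction and side of the threshold, 38 lost and 41 gained a call and 3 changed sign. With the animal as replicate block (random, correlation 0.04), 17499 genes and 7 members were called for brain against the mean of the others, and no member call across tissues changed. No paired analysis within a tissue was possible because each animal gave 1 array per tissue and replicate numbers pair nothing. With each array centred on its median, Cplx2 for liver minus lung was 0.05, Cplx1 with Vamp2 and Vamp2 with Sv2b over brains each 0.25, and 17 pairs passed.

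Counts of genes called moved with the filter. At the 40th percentile of the mean over all arrays they were 10877 for brain against the mean of the others, 10851 against kidney, 10899 against liver, 10761 against lung, 10604 for kidney minus liver, 10686 for kidney minus lung and 10851 for liver minus lung; fewer genes were tested. At the 60th percentile, brain gave 2985, 3924 and 2897 (CAST minus PWK, CAST minus WSB, PWK minus WSB), reciprocal CASTxWSB 53 and PWKxWSB 12, and lung 4578, 4474 and 4578. Reciprocal CASTxPWK gave 9 (additive cross and sex), 72 (array weights) and 6 (runs as block), CASTxWSB 481 (weights) and 14 (runs), PWKxWSB 10 (additive), 388 (weights), 5 (runs) and 17 (centred). Mid-parent counts with runs as block were 1128 for CAST and PWK and 425 for PWK and WSB, and sex with weights gave 17. Leaving out each brain array gave 10 to 19 for CASTxPWK, 29 to 153 for CASTxWSB, 13 to 65 for PWKxWSB, and mid-parent 1393 to 2689 for CAST and PWK and 592 to 1323 for PWK and WSB; the lowest and highest members called were 1 to 3, 2 to 4 and 2 to 4 for the inbred contrasts, 0 to 1 for CASTxWSB, and 0 to 1 and 1 to 2 for mid-parent CAST with PWK and CAST with WSB.

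Members called otherwise: interaction CAST minus PWK 0 (centred) and CAST minus WSB 1 (4-tissue animals, or no filter); brain CAST minus PWK 1 (centred); reciprocal CASTxWSB 2 (weights); mid-parent CAST and PWK 1 (weights) and 2 (centred), CAST and WSB 2 (weights, centred). Kidney gave 1 among crosses and 1 for CAST minus PWK (60th percentile, or runs), 1 for CAST minus WSB (centred) and 2 for PWK minus WSB (no filter), and liver 1 for CAST minus WSB (60th percentile, or runs). Lung gave 6 (no filter), 2 (additive, weights, centred) and 3 (mean of a symbol's clusters) among crosses. For CAST minus PWK it gave 3 (no filter), 0 (additive, runs, centred) and 2 (mean of clusters), for CAST minus WSB 6 (no filter), 0 (additive, weights, runs) and 2 (mean of clusters), and for PWK minus WSB 3 (no filter) and 2 (additive, weights, mean of clusters). Each member has 1 cluster, so the mean of clusters left the members' own values unchanged and moved only other genes and the filter level. Where no value or construction shows it, the cause was not tested. In 67 member comparisons no setting gave a call; of their 594 alternative values 49 had the other sign. The number of arrays limits the precision, and signal over background was not measured for each probe.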
